A study of Mus musculus with 10 samples.

Results

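The genes described here encode the proteins of the mitochondrial ribosome. They were chosen by name: every non-control probe whose RefSeq identifier belongs to a mouse gene with a symbol starting Mrpl or Mrps followed by a number, with the brightest probe standing for the gene. This gave 78 genes of the 20660 named genes on the array, 49 of the large subunit and 29 of the small subunit by symbol, spread over 17 chromosomes. Of these, 77 entered the tests, and each of the 77 was well above background on all 10 arrays. Mrpl21 was left out because its only probe was well above background on none of the 10 arrays.

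The mitochondrial ribosome translates the few messages of the mitochondrial genome, all of which code for subunits of the respiratory chain and ATP synthase. Its RNAs come from that genome, whereas all of its proteins are made from nuclear genes, translated in the cytosol and imported. In the erythroid lineage mitochondria also carry out the first and the last steps of haem synthesis, and they are discarded when the red cell matures. A few symbols are older than the structures of the mammalian particle: Mrps30 and Mrps18a are now placed in the large subunit, and Mrps36 is now known as a subunit of the 2-oxoglutarate dehydrogenase complex, so the split by symbol follows the name and not the place in the particle.

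The study used EML-C1, a clonal mouse blood progenitor line that depends on stem cell factor from conditioned medium and can make erythroid and myeloid cells, so all arrays come from the same clone. Cells were sorted by Sca1, a surface protein of progenitors, after culture with 1 or both of 2 sets of differentiation factors, and total RNA was hybridised to 1-colour Agilent arrays. There is 1 array for each of 10 conditions, so a difference between single arrays has no replicate check and was not tested. The study's design names a second experiment for each condition, which was not analysed here.

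EPO cultures received 10 ng/ml erythropoietin, and there is an array for their Sca1-low cells at day 3, their Sca1-high cells at day 3 and their cells at day 6. IL-3/GM-CSF cultures received 10 ng/ml IL-3 with 10 µM all-trans retinoic acid, and per the labels' protocols 10 ng/ml GM-CSF was added only after day 3; the same 3 arrays exist for them. Combined cultures received EPO and the IL-3/GM-CSF factors, again with 3 arrays. Untreated cells at day 0 were kept in 15% conditioned medium and give 1 array, and the medium of treated cells was changed to 2% conditioned medium after day 3. The labels give no Sca1 fraction for the day 6 arrays and for the untreated array.

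A level below is log2 of the processed intensity minus the array's 75th percentile, and levels of different probes are not set against each other. That percentile ranged from 309 in the EPO Sca1-low array and 478 in the EPO day 6 array to 736 in the untreated array. In the dimmer arrays bright probes stand further above the percentile, so each main difference is also given after quantile normalization, which makes the distributions of all arrays equal. The 10 arrays lie on 3 slides: slide 1 holds untreated, EPO day 6 and combined day 6, slide 2 the day 3 arrays of EPO and of IL-3/GM-CSF, and slide 3 both day 3 arrays of the combined culture and IL-3/GM-CSF day 6. All 3 comparisons of Sca1 fractions, and the EPO day 6 and combined day 6 comparisons with untreated cells, therefore lie within a slide.

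Marker genes followed the labels of the sort, but they followed the factors given to the cultures only in part. Ly6a, which encodes Sca1, had levels of -4.25, -3.43 and -2.80 in the Sca1-low cells of EPO, IL-3/GM-CSF and combined cultures, against 4.76, 2.64 and 1.89 in the Sca1-high cells. Of 12 erythroid markers, 11 were on the array, and their median level was 4.99 to 5.49 in Sca1-low cells against -1.15 to 0.06 in Sca1-high cells, 5.88 in EPO day 6 cells, -4.17 in IL-3/GM-CSF day 6 cells and -0.38 in untreated cells. Combined day 6 cells, which received EPO, had an erythroid median of -0.79, and IL-3/GM-CSF Sca1-low cells, which received none, had 5.05. The summed level of these 11 genes was 10.4 to 11.6 in Sca1-low cells against 8.71 to 9.22 in Sca1-high cells. It was 8.71 in combined day 6 cells and 7.90 in untreated cells, the opposite order to their medians. The median of 12 myeloid markers was -0.31 to 1.20 in Sca1-low cells against 0.78 to 5.40 in Sca1-high cells, and it was highest in IL-3/GM-CSF day 6 cells at 6.72. In combined day 6 cells it was 5.98. Among the lymphoid markers, the B cell genes Cd79a and Pax5 lay between -6.54 and -3.76 on all arrays, whereas Nkg7 lay between 2.46 and 6.98. In the limma fit between Sca1-low and Sca1-high cells, described below, 9 of 11 erythroid markers were called higher (median 3.60), while 3 of 12 myeloid (-1.59), 4 of 7 progenitor (-2.31), 4 of 6 mast cell (-2.74), 1 of 5 megakaryocyte (-0.30) and 2 of 5 tested lymphoid markers (0.29) were called lower. In the same fit 4.09% of all genes were called higher and 6.99% lower. The erythroid, myeloid, progenitor and mast cell medians thus differed between the fractions, but not every gene of a list went with its median. Csf3r of the myeloid list, for example, was higher in Sca1-low cells of all 3 cultures. The part of these lists in the differences described next was not tested.

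Promoters are shown first for 4 members, 3 that passed the test between the Sca1 fractions and 1 that was nearly level over all arrays. RefSeq start sites of build GRCm38.p6 gave a promoter window for 69 of the 78 members, and the 250 bases before the start were searched on both strands for 7 short motifs. Capitals mark matches on either strand. The ETS core, bound by factors such as GABPA, was searched as CCGGAAG. The core of NRF1, a factor of many nuclear genes for mitochondrial proteins, was searched as GCGCATG. The YY1 core was searched as GATGGCG and the E-box, bound by Myc among others, as CACGTG. The GC box was searched as GGGCGG, the CCAAT box by the letters of its name and the TATA box as TATAAA. Matches that overlap each other run together in capitals.

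Mrpl52, chr14:54426659-54426908, forward strand: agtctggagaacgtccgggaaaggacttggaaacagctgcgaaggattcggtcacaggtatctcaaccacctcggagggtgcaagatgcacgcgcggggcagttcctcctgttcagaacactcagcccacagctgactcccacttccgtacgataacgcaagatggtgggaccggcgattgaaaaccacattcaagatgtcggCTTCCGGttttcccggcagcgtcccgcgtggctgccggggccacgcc

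Mrpl47, chr3:32736756-32737005, reverse strand: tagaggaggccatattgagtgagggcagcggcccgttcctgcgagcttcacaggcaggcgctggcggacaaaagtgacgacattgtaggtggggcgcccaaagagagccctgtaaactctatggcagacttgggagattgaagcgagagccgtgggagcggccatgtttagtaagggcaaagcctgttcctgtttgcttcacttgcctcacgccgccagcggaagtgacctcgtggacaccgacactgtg

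Mrps36, chr13:100744660-100744909, reverse strand: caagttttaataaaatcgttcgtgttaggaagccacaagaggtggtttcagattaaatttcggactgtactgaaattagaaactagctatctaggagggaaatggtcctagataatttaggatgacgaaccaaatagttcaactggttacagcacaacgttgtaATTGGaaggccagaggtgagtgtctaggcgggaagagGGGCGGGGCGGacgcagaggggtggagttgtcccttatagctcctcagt

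Mrps33, chr6:39810937-39811186, reverse strand: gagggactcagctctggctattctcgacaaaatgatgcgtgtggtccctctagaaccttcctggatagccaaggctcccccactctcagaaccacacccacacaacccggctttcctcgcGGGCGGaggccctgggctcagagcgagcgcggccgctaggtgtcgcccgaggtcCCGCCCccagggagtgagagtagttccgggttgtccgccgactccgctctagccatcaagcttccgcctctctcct

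Mrpl52 held 1 ETS core, Mrps36 held 2 GC boxes that overlap and a CCAAT box, Mrps33 held 2 GC boxes, and none of the 7 motifs was in the Mrpl47 window. The ETS core was in 26.1% of the members' windows, against 14.0% of the windows of all genes tested and 7.83% of all 27025 windows. The NRF1 core was in 11.6% of the members' windows, against 5.90% of the windows of genes tested and 3.68% of all windows. The TATA box was in 7.25% of the members' windows, against 9.87% and 14.3%. The other motifs were found in 2.90% (YY1), 47.8% (GC box), 7.25% (E-box) and 36.2% (CCAAT box) of the members' windows, against 3.72%, 56.6%, 9.21% and 40.0% of the windows of genes tested. The median GC content was 58.4% for members and 58.4% for genes tested. A match is only a run of letters, and these shares are descriptions with no test.

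The Mrpl47 window overlaps that of Ndufb5, a complex I subunit gene that is transcribed in the opposite direction. Such head-to-head windows were found for 5 of the 69 members (7.25%), against 5.64% of genes tested and 3.77% of all genes with a window. Over the 10 arrays the levels of Mrpl47 and Ndufb5 correlated with r = 0.77, and the mean difference between Sca1-low and Sca1-high cells was 1.37 for Mrpl47 and 0.34 for Ndufb5. Over the 5 pairs r ranged from 0.10 to 0.95 with a median of 0.77, and the part of the shared window in it was not tested.

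The mitochondrial ribosomal protein genes were expressed together, and they were highest in the cells that carried the erythroid markers. The median level of the 77 genes was 5.22 in EPO Sca1-low cells, 4.42 in EPO Sca1-high cells and 5.04 in EPO day 6 cells. It was 4.56, 4.32 and 4.17 in the same 3 populations of IL-3/GM-CSF cultures. It was 4.61, 3.69 and 4.27 in the same 3 populations of combined cultures, and 4.18 in untreated cells. The EPO Sca1-low and EPO day 6 arrays were thus the 2 highest and the combined Sca1-high array was the lowest. After quantile normalization the 4 highest arrays were the same: EPO Sca1-low, EPO day 6, combined Sca1-low and IL-3/GM-CSF Sca1-low cells. The 2 highest arrays were also the 2 dimmest, and the part of this in their levels was not tested beyond the quantile values. In such bulk samples a change in the share of a cell type and a change of RNA per cell cannot be told apart.

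This order was shared by most members. The EPO Sca1-low array held the highest level of 59 of the 77 genes, the EPO day 6 array that of 17 and the IL-3/GM-CSF Sca1-low array that of 1, Mrpl50. The combined Sca1-high array held the lowest level of 70 genes. The 7 exceptions were Mrpl9, Mrpl38, Mrpl52 and Mrps27, lowest in IL-3/GM-CSF day 6 cells, Mrpl1 and Mrps36, lowest in IL-3/GM-CSF Sca1-high cells, and Mrpl23, lowest in untreated cells. These counts depend on the scaling, and no share over all genes is given for them. After quantile normalization 25 members were higher in EPO day 6 than in EPO Sca1-low cells, against 18 before it. Combined Sca1-high cells then lay above untreated cells for 10 members, against 1 before. The profile of each gene over the 10 arrays correlated with the median of the other members with a median r of 0.94 (0.87 after quantile normalization), and 72 genes had r above 0.7. The medians of the large and the small subunit genes correlated with r = 0.96 (0.91 after quantile normalization). These correlations are over 10 arrays that share the scaling, and they are given as descriptions.

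**Figure D1:**
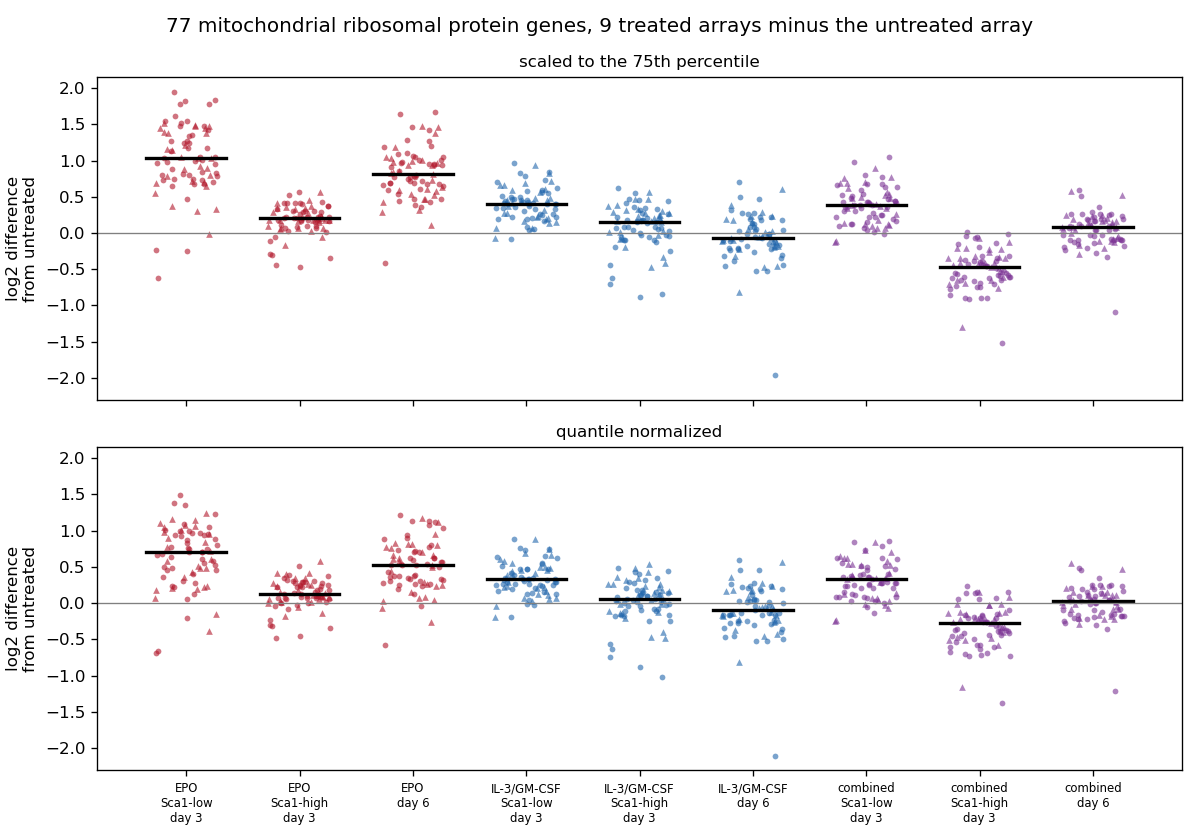
Log2 difference from the untreated array (vertical axis) for 77 mitochondrial ribosomal protein genes on each of 9 treated arrays, after scaling to the 75th percentile (upper panel) and after quantile normalization (lower panel). Each circle is a large subunit gene and each triangle a small subunit gene, and black bars are medians: 1.04, 0.20 and 0.81 for the EPO arrays, 0.40, 0.15 and -0.07 for the IL-3/GM-CSF arrays and 0.39, -0.47 and 0.08 for the combined arrays in the upper panel, with the EPO Sca1-low median at 0.70 and the combined Sca1-high median at -0.28 in the lower panel.

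The first comparison asks how cells low in Sca1 at day 3 differed from cells high in it. In all 3 cultures the median mitochondrial ribosomal protein gene was higher in Sca1-low cells. The median difference, Sca1-low minus Sca1-high, was 0.83 in EPO cultures, 0.29 in IL-3/GM-CSF cultures and 0.86 in combined cultures, against 0.15, 0.07 and 0.24 for all 14213 genes tested. After quantile normalization it was 0.55, 0.31 and 0.62, against -0.01, 0.03 and 0.06 for all genes. The size of the difference thus depended on the scaling in EPO and combined cultures, and its direction did not.

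Counted gene by gene, 60 of the 77 were at least 1.5-fold higher in Sca1-low than in Sca1-high cells of EPO cultures, where 25.7% of all genes were. In combined cultures 63 of the 77 were, where 27.8% of all genes were. In IL-3/GM-CSF cultures only 13 of the 77 were, where 19.7% of all genes were, so that count was no larger than the background. After quantile normalization the counts were 36 in EPO cultures (all genes 19.3%), 42 in combined cultures (21.1%) and 13 in IL-3/GM-CSF cultures (19.2%). No member was 1.5-fold lower in any of the 3 cultures, where 22.0%, 21.1% and 17.3% of all genes were lower in EPO, IL-3/GM-CSF and combined cultures.

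The direction was the same in all 3 cultures for 58 of the 77 genes, all of them higher in Sca1-low cells, where 34.0% of all genes were higher throughout. It was the same for 55 genes after quantile normalization, where 28.6% of all genes were higher throughout. Most of the other 19 genes were slightly lower in Sca1-low than in Sca1-high cells of the IL-3/GM-CSF culture alone, by 0.03 to 0.45 on the log2 scale. The exceptions were Mrpl18 and Mrpl50, which were below 0 in the EPO culture, at -0.13 and -0.31, and above 0 in the other 2 cultures.

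The limma fit over the 6 day 3 arrays, with the treatment as a block, sets the mean difference of a gene against its unevenness over the 3 treatments, which is not replicate error. All 77 fitted differences were above 0, where 60.1% of all genes were, and 75 were after quantile normalization, with Mrps23 and Mrps33 below 0. The median of the 77 was 0.66, against 0.17 for all genes, and 0.47 after quantile normalization, against 0.05. The fit called 4 members higher in Sca1-low cells at a Benjamini-Hochberg adjusted p under 0.05, where 4.09% of all genes were called higher, and it called none lower, where 6.99% of all genes were. The share of members called was thus near the background. At an unadjusted p under 0.05, 42 of the 77 were higher, where 16.9% of all genes were. Large subunit genes by symbol had a median of 0.69 with 3 called, and small subunit genes by symbol a median of 0.56 with 1 called. That 1 was Mrps36, now known as a dehydrogenase subunit. The difference between the subunits was not tested.

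**Figure D2:**
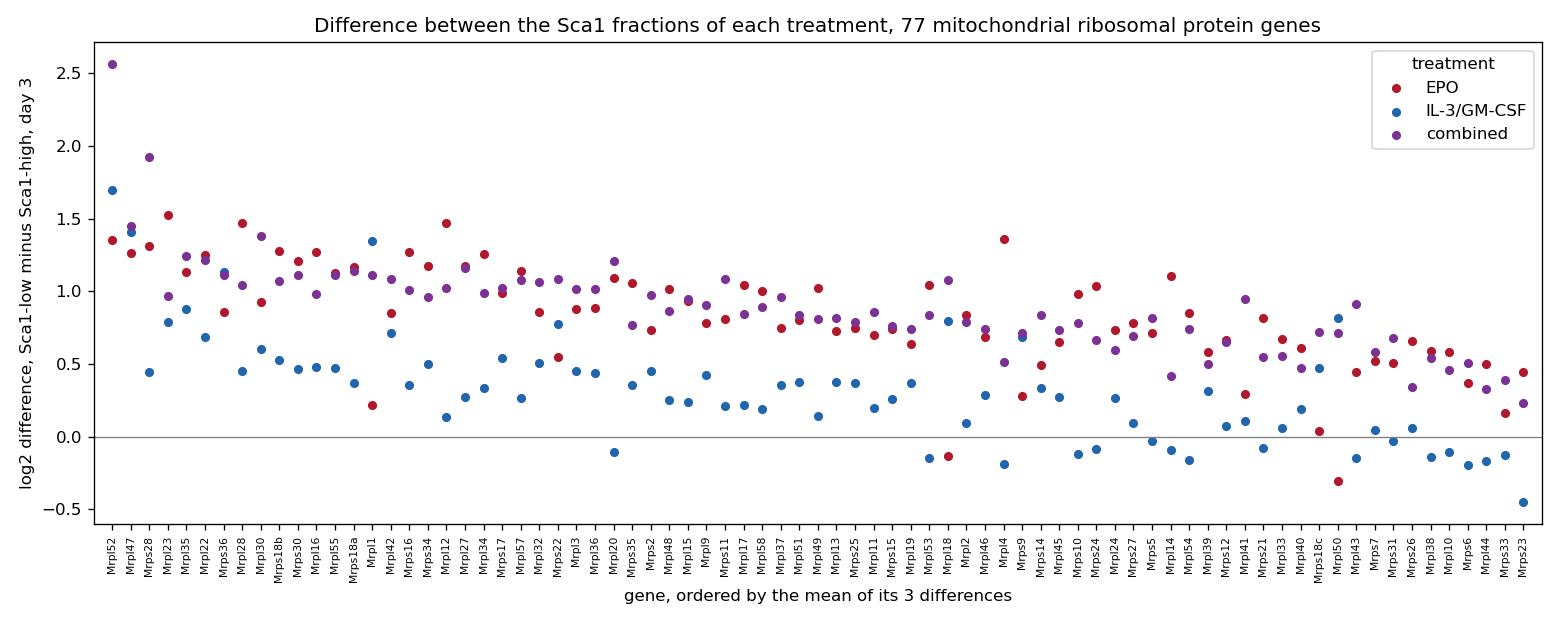
Log2 difference between Sca1-low and Sca1-high cells at day 3 (vertical axis) for each of 77 genes (horizontal axis, ordered by the mean of the 3 differences), with 1 point for each of EPO, IL-3/GM-CSF and combined cultures. Mrpl52 and Mrpl47 stand at the high end and Mrps33 and Mrps23 at the low end; the median is 0.83 for EPO, 0.29 for IL-3/GM-CSF and 0.86 for combined points, and after quantile normalization the means of Mrps33 and Mrps23 are below 0.

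Mrpl52, which encodes a large subunit protein found in mitochondrial but not in bacterial ribosomes, varied most. Its level was 8.0 in Sca1-low cells, 6.65 in Sca1-high cells and 7.88 in day 6 cells of EPO cultures. In the same populations it was 7.06, 5.37 and 4.25 in IL-3/GM-CSF cultures and 7.26, 4.70 and 5.12 in combined cultures, and it was 6.22 in untreated cells. Every Sca1-low array lay above every Sca1-high array, and the 2 day 6 arrays of cultures with IL-3 and GM-CSF lay below the Sca1-high arrays of EPO and of IL-3/GM-CSF cultures. The fitted difference between Sca1-low and Sca1-high cells was 1.87 ± 0.30 (SE; limma adjusted p = 0.0288), and 1.60 after quantile normalization. Mrpl52 also had the largest departure from the other members: the SD of its level around the members' median profile was 0.97, where the median gene had 0.20.

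Mrpl47 encodes a large subunit protein near the exit of the nascent chain tunnel. Its level was 4.56, 3.30 and 4.77 in Sca1-low cells, Sca1-high cells and day 6 cells of EPO cultures, 4.29, 2.88 and 3.27 in those of IL-3/GM-CSF cultures, and 4.26, 2.81 and 3.40 in those of combined cultures, against 3.59 in untreated cells. The 3 fraction differences were 1.26, 1.41 and 1.45, nearly equal over the cultures, which gave the smallest adjusted p of the members (1.37 ± 0.20, SE; limma adjusted p = 0.0215). Untreated cells lay between the Sca1-low and the Sca1-high arrays, which did not overlap.

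Mrpl35, a large subunit protein with a bacterial counterpart, had a dim probe that was still above the background limits of -5.36 to -3.47 on these arrays. Its level was 0.01, -1.12 and 0.28 in Sca1-low cells, Sca1-high cells and day 6 cells of EPO cultures, -0.15, -1.02 and -1.22 in those of IL-3/GM-CSF cultures, and -0.14, -1.38 and -0.95 in those of combined cultures, against -0.77 in untreated cells. The fitted difference between Sca1-low and Sca1-high cells was 1.08 ± 0.21 (SE; limma adjusted p = 0.0422). Mrps36, the dehydrogenase subunit, had levels of 5.28, 4.42 and 5.70 in EPO cultures, 4.95, 3.82 and 4.05 in IL-3/GM-CSF cultures and 5.01, 3.90 and 4.19 in combined cultures, in the same order of populations, against 4.24 in untreated cells. Its fitted difference was 1.03 ± 0.20 (SE; limma adjusted p = 0.0448). For both genes the Sca1-low arrays lay above all Sca1-high arrays, as they did for Mrpl52 and Mrpl47. Members that were not called, such as Mrps22 and Mrpl22, showed the same. The called genes were picked by this difference, and no share over all genes is given for such a separation.

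The number of calls changed when a culture was left out. Without the combined culture or without the IL-3/GM-CSF culture none of the 77 was called, and without the EPO culture 4 were. Such a fit has fewer arrays to estimate the unevenness, so a lost call does not show that a difference came from few arrays. The fitted differences were then 1.52 to 2.13 for Mrpl52, 1.33 to 1.43 for Mrpl47, 1.00 to 1.19 for Mrpl35 and 0.98 to 1.12 for Mrps36. The calls also depended on the settings, and of the 4 genes only Mrpl47 kept its call under all 3 settings given next. Quantile normalization left 2 members called, with Mrpl52 and Mrps36 at limma adjusted p-values of 0.0630 and 0.0912. With no filter on dim probes 2 were called, with Mrpl35 and Mrps36 at limma adjusted p-values of 0.0740 and 0.0768. With slide as a block in place of treatment 2 were called, with Mrpl52 and Mrps36 at limma adjusted p-values of 0.0801 and 0.0736. With normexp before quantile normalization 12 members were called, where 5.83% of all genes were called higher, and in the fit over all 10 arrays none was. With the test restricted to genes well above background on all 10 arrays 28 members were called, where 12.7% of the genes then tested were called higher. For the other settings and the left-out cultures no share of all genes called is given. Their counts therefore cannot be set against a background.

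Among the members that did not pass, Mrps28, a small subunit protein, had a fitted difference of 1.22 ± 0.34 (SE; limma adjusted p = 0.0916), and its single differences were 1.31 in EPO, 0.44 in IL-3/GM-CSF and 1.92 in combined cultures. Mrpl23, which lies at the tunnel exit, had a fitted difference of 1.09 with an adjusted p of 0.0588 in the limma fit. At the other end of the order were Mrps23 at 0.07, Mrps33 at 0.14, Mrpl44 and Mrps6 at 0.22 and Mrpl10, which anchors the ribosomal stalk, at 0.31. Mrps33 had levels of 5.46, 5.30 and 5.76 in EPO cultures, 5.28, 5.41 and 5.73 in IL-3/GM-CSF cultures and 5.39, 5.00 and 5.65 in combined cultures, in the order Sca1-low, Sca1-high and day 6, against 5.12 in untreated cells. Its 3 day 6 arrays were its 3 highest, unlike the median member.

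**Figure D3:**
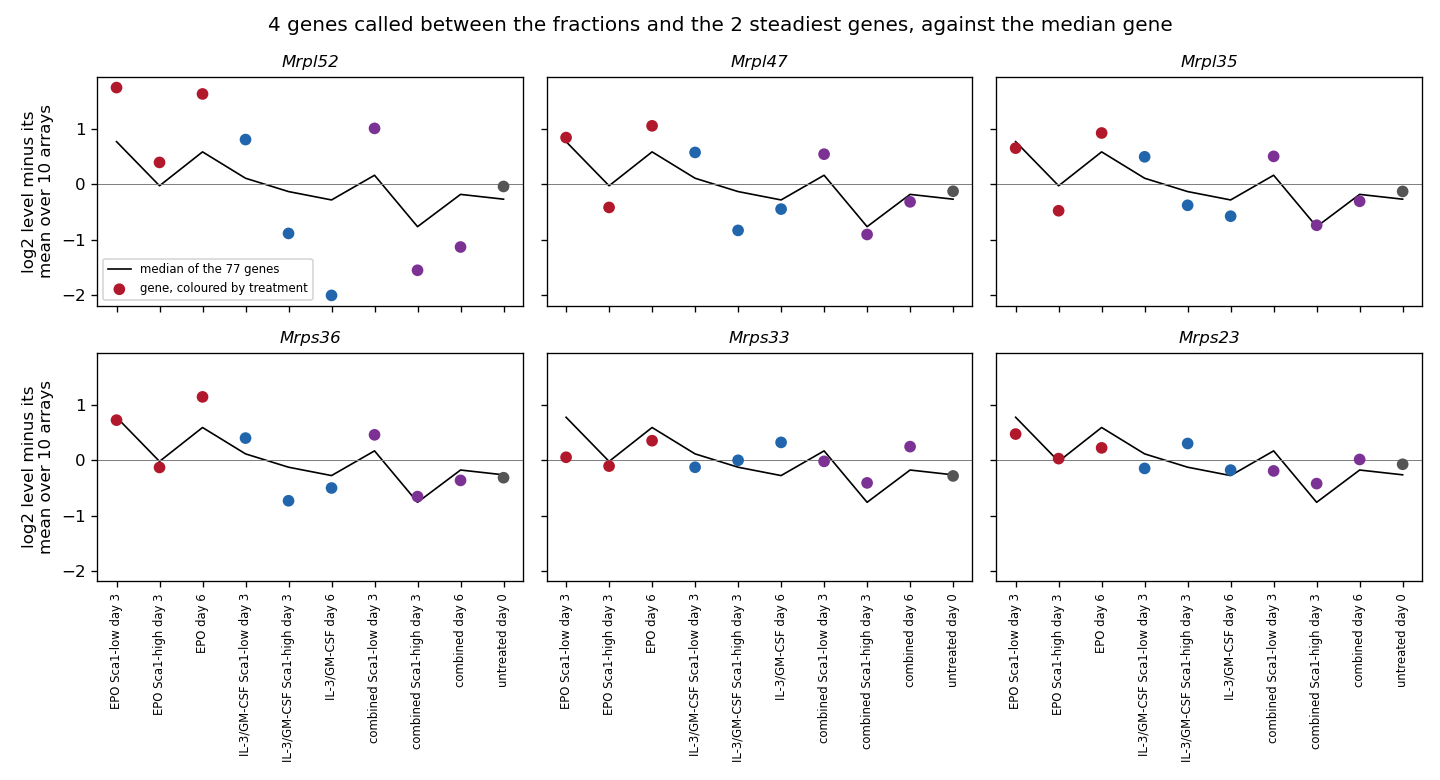
Level of 6 genes on each array minus the gene's mean over the 10 arrays (points, coloured by treatment; vertical axis in log2 units; 1 array for each condition on the horizontal axis), with the median of the 77 genes treated in the same way as a line. Mrpl52 ranges from 4.25 to 8.0 in level and swings wider than the line, Mrpl47, Mrpl35 and Mrps36 follow it with wider gaps between Sca1-low and Sca1-high arrays, and Mrps33 and Mrps23 stay within ranges of 0.76 and 0.89 log2 units.

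Mrpl51, of the large subunit, lay closest to the common profile. Its level was 7.30, 6.49 and 7.03 in EPO cultures, 6.63, 6.26 and 6.24 in IL-3/GM-CSF cultures and 6.53, 5.69 and 6.28 in combined cultures, in the order Sca1-low, Sca1-high and day 6, against 6.31 in untreated cells. It was chosen for this after its values were seen, and it correlated with the median of the other members with r = 0.99.

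The 3 paralogues of bacterial S18 did not share a profile. Mrps18a had fraction differences of 1.17, 0.37 and 1.14 and Mrps18b of 1.28, 0.53 and 1.07 in EPO, IL-3/GM-CSF and combined cultures. Mrps18c had differences of 0.04, 0.47 and 0.72 in the same cultures. The level of Mrps18c correlated with the median of the other members with r = 0.69 over the 10 arrays, where Mrps18a had r = 0.99 and Mrps18b r = 0.97. Mrpl1, the protein of the movable L1 stalk, and Mrpl50 also departed, with SDs of 0.54 and 0.53 around the members' median profile and r of 0.42 and 0.05. Mrpl1 was 0.88 in EPO Sca1-low cells and 0.67 in EPO Sca1-high cells, against 1.14 in untreated cells, so both day 3 EPO arrays lay below the untreated array where most members lay above it.

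A second probe existed for 22 of the 78 genes. It correlated with the brightest probe over the 10 arrays with r above 0.9 for 9 genes, between 0.5 and 0.9 for 9 and under 0.5 for Mrpl39 (0.40), Mrpl41 (-0.54), Mrpl50 (0.21) and Mrps25 (-0.48). The second probe was higher in Sca1-low than in Sca1-high cells of all 3 cultures for 13 of the 22 genes. For Mrpl50 the probes differed in the EPO culture, at -0.31 for the brightest and 0.59 for the second, and the second probe was above 0 in the other 2 cultures too, at 0.45 and 1.01. For Mrpl41 and Mrps25 the second probe was lower in EPO Sca1-low than in EPO Sca1-high cells, by 0.69 and 0.79, where the brightest probe was higher by 0.29 and 0.74.

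The second comparison asks how treated cells differed from untreated ones. EPO Sca1-low cells differed most: the median difference from untreated cells was 1.04, and 68 of the 77 genes were at least 1.5-fold higher, where 30.4% of all genes were. After quantile normalization the median was 0.70 and 45 genes were at least 1.5-fold higher, where 23.8% of all genes were. EPO day 6 cells had a median difference of 0.81, with 60 genes at least 1.5-fold higher where 24.7% of all genes were, and of 0.53 with 33 genes after quantile normalization, where 18.4% were. EPO Sca1-high cells had a median difference of 0.20 and no gene past 1.5-fold in either direction, where 9.35% of all genes were higher and 7.18% lower.

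IL-3/GM-CSF and combined cultures stayed closer to untreated cells. In Sca1-low cells the median difference was 0.40 for IL-3/GM-CSF and 0.39 for combined cultures, with 16 genes (all genes 17.4%) and 17 genes (all genes 19.0%) at least 1.5-fold higher, so these shares were near the background. For combined Sca1-low cells the count was 28 after centring on the median gene, where 24.4% of all genes were, and 11 with normexp and quantile normalization, where 12.3% were. At day 6 the medians were -0.07 and 0.08. Combined Sca1-high cells were the exception, with a median difference of -0.47 and 28 genes at least 1.5-fold lower than in untreated cells, where 18.9% of all genes were lower. After quantile normalization their median was -0.28, and relative to the median of all genes it was -0.15. Then 11 genes were at least 1.5-fold lower, where 17.1% of all genes were, so the count fell below the background. Centring on the median gene gave 13 genes, where 13.2% of all genes were lower. All 9 of these differences share the untreated array.

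The fit over all 10 arrays, with additive terms for treatment and population, called no member in any of its comparisons at a limma adjusted p under 0.05. It called 0.0% of all genes against untreated cells, between combined and IL-3/GM-CSF cultures and between days, and 0.00704%, 1 gene, between EPO and each of the other 2 cultures. For EPO minus untreated 12 members had an unadjusted p under 0.05 in the limma fit, all higher, where 5.64% of all genes were. None had for IL-3/GM-CSF minus untreated, where 3.51% of all genes were higher and 3.25% lower in the limma fit, or for combined minus untreated, where 2.22% were higher and 2.55% lower, so these counts of 0 stand against low backgrounds. For EPO minus untreated the median fitted difference was 0.69 (0.50 after quantile normalization, 1.06 with slide as a block), against 0.12 for all genes (-0.01 and 0.22), and 68 of the 77 genes were higher than untreated in all 3 EPO populations, where 33.6% of all genes were, and 59 after quantile normalization, where 27.1% were. The highest fitted differences were those of Mrpl23 (1.34 ± 0.34, SE), Mrpl52 (1.30 ± 0.77), Mrpl34 (1.29 ± 0.39), Mrps30 (1.08 ± 0.47) and Mrpl12 (1.08 ± 0.44), each with a limma adjusted p of 0.461 or more. Mrpl12 belongs to the stalk that recruits translation factors and also binds the mitochondrial RNA polymerase. Its level was 7.56, 6.10 and 6.73 in Sca1-low cells, Sca1-high cells and day 6 cells of EPO cultures, against 5.72 in untreated cells, so all 3 EPO arrays lay above the untreated one.

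After quantile normalization Mrpl4, Mrpl10, Mrpl14, Mrpl33, Mrpl34, Mrps35 and Mrpl23 were each lowest in untreated cells. Before it, Mrpl23 was the only member whose lowest level was in untreated cells. It was 6.79, 5.26 and 6.48 in Sca1-low cells, Sca1-high cells and day 6 cells of EPO cultures, 5.81, 5.03 and 5.34 in those of IL-3/GM-CSF cultures, and 5.83, 4.86 and 5.35 in those of combined cultures, against 4.84 in untreated cells. It had the highest fitted difference from untreated cells of the members for IL-3/GM-CSF (0.55 ± 0.34, SE) and for combined cultures (0.50 ± 0.34) as well. At the low end for EPO minus untreated were Mrpl50 (-0.45), Mrpl1 (0.02), Mrpl18 (0.10), Mrps18c (0.17) and Mrps9 (0.27), and after quantile normalization Mrpl18 was at -0.22 and Mrps18c at -0.10. For IL-3/GM-CSF minus untreated the median fitted difference was 0.16, but it was 0.66 with slide as a block, against 0.20 for all genes, and it was -0.059 without the IL-3/GM-CSF Sca1-high array and 0.30 without the IL-3/GM-CSF day 6 array. The lowest were those of Mrpl52 (-0.66 ± 0.77) and Mrpl50 (-0.29 ± 0.39). For combined minus untreated the median was -0.02 (0.02 after quantile normalization), but 0.32 with slide as a block and 0.078 without the combined Sca1-high array, and Mrpl52 was again lowest at -0.52 ± 0.77.

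The third comparison sets the treatments against each other. EPO minus IL-3/GM-CSF had a median fitted difference of 0.54 (0.35 after quantile normalization), against 0.10 for all genes (0.02). Of the 77 genes, 47 were higher in the EPO array of all 3 populations, where 23.4% of all genes were, and 44 after quantile normalization, where 20.5% were. At an unadjusted p under 0.05 in the limma fit 26 members were higher, where 10.4% of all genes were. The difference was nearly absent between Sca1-high cells, at a median of 0.08, was 0.63 between Sca1-low cells and was 0.85 at day 6. In the day 6 pair 57 genes were at least 1.5-fold higher in EPO cells, where 29.2% of all genes were, and 39 after quantile normalization, where 24.6% were. In the Sca1-low pair, which lies on the same slide, 47 genes were at least 1.5-fold higher in EPO cells, where 22.8% of all genes were, but only 17 after quantile normalization, where 17.4% were. The highest fitted difference was that of Mrpl52, at 1.95 ± 0.55 (SE; limma adjusted p = 0.210), followed by Mrpl12 (0.97), Mrps28 (0.89), Mrpl28 (0.88) and Mrps36 (0.86). At the low end were Mrpl50 (-0.15), Mrps33 (0.04), Mrpl1 (0.07), Mrpl33 (0.13) and Mrpl18 (0.17). Mrps33, Mrpl33 and Mrpl18 were below 0 after quantile normalization, at -0.20, -0.16 and -0.06.

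Combined cultures, which received EPO at the same dose, lay below EPO cultures. The median fitted difference, combined minus EPO, was -0.71 (-0.42 after quantile normalization), against -0.14 for all genes (-0.04), and 72 of the 77 genes were lower in the combined array of all 3 populations, where 31.5% of all genes were, and 61 after quantile normalization, where 25.4% were. At day 6, on the same slide, 54 genes were at least 1.5-fold lower in combined than in EPO cells, where 25.4% of all genes were, and 30 after quantile normalization, where 20.3% were. No member was called, with the lowest limma adjusted p at 0.147 for Mrpl28 (-1.23 ± 0.25, SE), while 48 had an unadjusted p under 0.05 in that direction, where 15.3% of all genes did. Mrpl28 had levels of 3.23, 2.19 and 2.65 in Sca1-low cells, Sca1-high cells and day 6 cells of combined cultures, against 4.63, 3.16 and 3.96 in those of EPO cultures, lower in each pair. Mrpl52 (-1.81), Mrpl12 (-1.16), Mrpl20 (-1.15) and Mrps28 (-1.09) were the other members at this end, while 76 of the 77 fitted differences were below 0, where 58.5% of all genes were. Mrpl50 (0.19) was the exception, joined after quantile normalization by Mrps33 (0.17), Mrpl33 (0.10) and Mrps18c (0.01).

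Between combined and IL-3/GM-CSF cultures the median single-array difference was widest in Sca1-high cells. In Sca1-low cells the median difference, combined minus IL-3/GM-CSF, was -0.03 and none of the 77 genes passed 1.5-fold, where 6.5% of all genes were higher and 5.03% lower. At day 6 the median was 0.10. In Sca1-high cells it was -0.62 and 44 genes were at least 1.5-fold lower in combined than in IL-3/GM-CSF cells, where 19.0% of all genes were, but only 9 after quantile normalization, where 15.3% were. Mrpl20 (-0.48 ± 0.33, SE) and Mrpl49 (-0.46 ± 0.24) had the lowest fitted differences, and Mrpl52 (0.14 ± 0.55) the highest. The median fitted difference was -0.17, but -0.37 with slide as a block, 0.047 without the IL-3/GM-CSF Sca1-high array, -0.34 without the IL-3/GM-CSF day 6 array and -0.073 without the combined Sca1-high array. No member had an unadjusted p under 0.05 in the limma fit, where 0.985% of all genes were higher and 0.837% lower.

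Between day 6 and the mean of both day 3 fractions the median fitted difference depended on the model. It was -0.01, but -0.41 with slide as a block, against -0.12 for all genes, and it was 0.12 without the IL-3/GM-CSF Sca1-high array and 0.16 without the IL-3/GM-CSF day 6 array. Only Mrpl1 was higher at an unadjusted p under 0.05 in the limma fit, where 4.63% of all genes were. No member was lower, and no share of all genes is given for that direction. The culture medium changed between these days, which cannot be told apart from time. Mrpl1 (0.66 ± 0.27, SE), Mrps33 (0.41 ± 0.17), Mrpl18 (0.36 ± 0.28), Mrps10 (0.34 ± 0.27) and Mrps18c (0.33 ± 0.21) were at the high end. Mrpl52 (-0.76 ± 0.47), Mrps27 (-0.59 ± 0.25), Mrpl38 (-0.33 ± 0.21), Mrps34 (-0.29 ± 0.19) and Mrpl12 (-0.27 ± 0.27) were at the low end. Mrps27 had a level of -0.30 in IL-3/GM-CSF day 6 cells and 0.23 in combined day 6 cells, against 0.31 to 1.67 on the other 8 arrays. Within treatments the day 6 cells took different places: the median difference from Sca1-high cells was 0.64 in EPO, -0.19 in IL-3/GM-CSF and 0.51 in combined cultures, and the median difference from Sca1-low cells was -0.23, -0.46 and -0.33.

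Other genes of mitochondrial gene expression had median differences between the Sca1 fractions of about the same size. The fitted median, Sca1-low minus Sca1-high, was 0.69 for 5 further mitochondrial ribosomal proteins with other names (0.46 after quantile normalization), with Dap3 at 0.87 and Aurkaip1 at 0.40. It was 0.66 (0.57) for 26 mitoribosome assembly genes, of which 2 were called higher: the pseudouridine synthase Rpusd3 at 1.52 ± 0.20 (SE; limma adjusted p = 0.0181) and the GTPase Noa1 at 1.45 ± 0.29 (limma adjusted p = 0.0456). It was 0.51 (0.45) for 16 mitochondrial translation factors with none called, the elongation factor Gfm1 at the high end with 1.07 and the formyltransferase Mtfmt at the low end with 0.03 (-0.03 after quantile normalization). It was 0.70 (0.55) for 18 mitochondrial aminoacyl-tRNA synthetases and 0.65 (0.63) for 12 genes of mitochondrial DNA replication and transcription, with none called and every gene of both lists above 0. At an unadjusted p under 0.05 the limma fit had 5 of the 16 factors, 9 of the 18 synthetases and 6 of the 12 DNA genes higher in Sca1-low cells and none lower. Of all genes 16.9% were higher at that threshold, and 4.09% were called higher at an adjusted p under 0.05. Mars2, a synthetase, had 1.33 and Tefm, the mitochondrial transcription elongation factor, had 0.95.

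The respiratory chain and the cytosolic ribosome were also higher in Sca1-low cells at the fitted median, and no difference between lists was tested. The counts below stand against the same shares of all genes, 4.09% called higher and 16.9% higher at an unadjusted p under 0.05 in the limma fit. The 63 nuclear subunits of the respiratory chain had a fitted median of 0.54 (0.30 after quantile normalization), 39 were higher in all 3 cultures after quantile normalization, where 28.6% of all genes were, and Ndufa5, of complex I, was the only one called (1.06 ± 0.20, SE; limma adjusted p = 0.0434). The 78 cytosolic ribosomal proteins had a fitted median of 0.38 and of 0.01 after quantile normalization, with none called, 2 at an unadjusted p under 0.05 in the limma fit, and Rps21 at 1.35 as the highest. Only 21 of the 78 were higher in all 3 cultures, where 34.0% of all genes were. After quantile normalization 13 were, where 28.6% of all genes were, so both shares lay below the background. Cytosolic ribosomal proteins were also 0.74 higher in EPO than in untreated cells at the median in the 10-array fit, and 0.06 after quantile normalization. Their probes are among the brightest, with a median quantile-normalized level of 17.8 to 17.9 on every array, and quantile normalization sets that end of the distribution equal on all arrays, so its values near 0 are not a comparison with the mitochondrial ribosomal proteins. For 17 proliferation genes, such as Rrm2 (0.61) and Ccna2 (0.56), the fitted fraction difference had a median of 0.35 (0.16), with none called and 2 higher at an unadjusted p under 0.05 in the limma fit. Their median level was lowest in combined Sca1-high cells, at 4.82 against 5.37 to 6.05 on the other 9 arrays, the array on which most mitochondrial ribosomal protein genes were lowest too, and the part of this in the result was not tested.

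Of 8 regulators of mitochondrial gene expression that were tested, none was called between the Sca1 fractions in the limma fit. At an unadjusted p under 0.05 in that fit 1 was higher, where 16.9% of all genes were, and 1 was lower. Myc was at 1.07 ± 0.41 (SE; limma adjusted p = 0.159) and the coactivator Ppargc1b at 0.71 ± 0.30, whereas Gabpb1, the partner of the ETS factor GABPA, was at -0.77 ± 0.28 (limma adjusted p = 0.153). Against untreated cells, EPO cells had Myc at 1.80 ± 0.53 and Gabpb1 at -0.84 ± 0.36 in the 10-array fit, each with a limma adjusted p of 0.461. Members with an ETS core in their window had a median fraction difference of 0.71 (18 genes), and members with a window but no core 0.59 (50 genes), with overlapping ranges of 0.35 to 1.87 and 0.07 to 1.37.

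**Figure D4:**
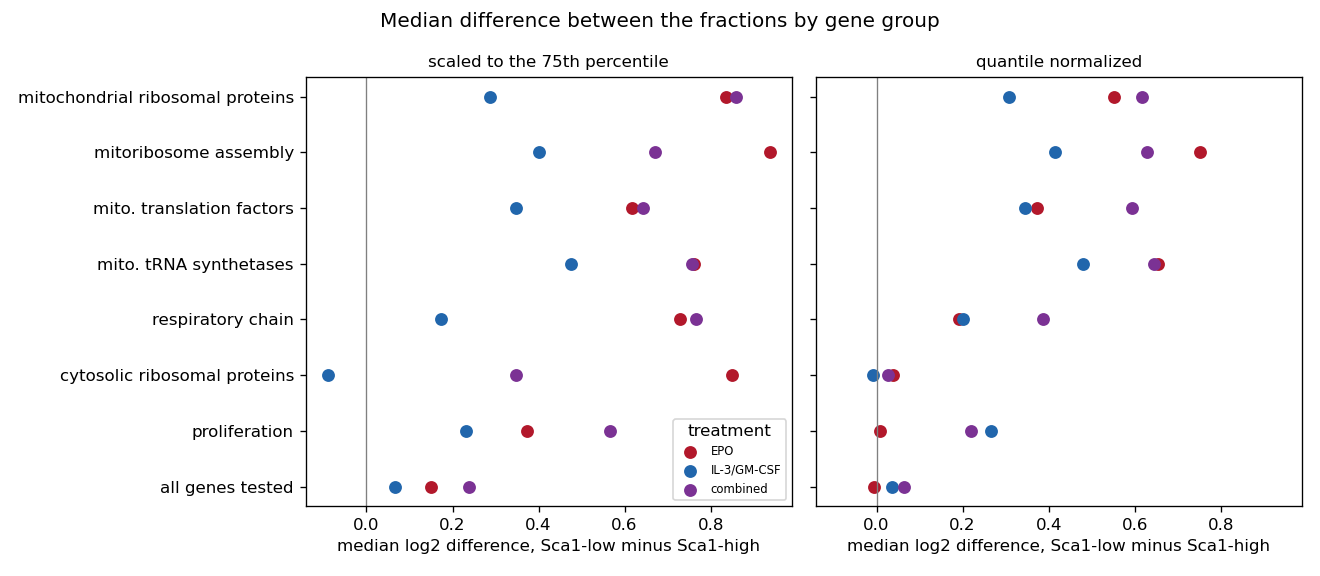
Median log2 difference between Sca1-low and Sca1-high cells at day 3 (horizontal axis) for 7 gene groups and all genes tested (rows), with 1 point for each of 3 cultures, after scaling to the 75th percentile (left) and quantile normalization (right). Mitochondrial ribosomal proteins, assembly genes, translation factors and tRNA synthetases lie between 0.29 and 0.94 in both panels, whereas cytosolic ribosomal proteins are at 0.85, -0.09 and 0.35 on the left for EPO, IL-3/GM-CSF and combined cultures and between -0.01 and 0.04 on the right, where the normalization sets the brightest probes equal.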

How the data were processed

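Per the labels' protocols, Cy3-labelled RNA of 10 conditions was hybridised to 1-colour Agilent arrays, and scans were read with Agilent Feature Extraction 11.0.1.1, per the submitters' processing notes. The authors deposited 1 scanner file for each array, and the values used are its processed signal, a background-subtracted intensity per spot, per the file headers. The deposited series matrix holds the same intensities, with 7 features left out. Each array has 62976 spots, no spot was saturated, and at most 0.61% were flagged as outliers and left out. With 1 array for each condition, the number of arrays limits the precision.

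Repeat spots were averaged, log2 was taken and each array's 75th percentile subtracted. RefSeq identifiers matched the GRCm38.p6 gene table for 98.1% of probes that carry one. The 14213 genes that the scanner's flag put above background in 2 or more arrays were fitted with limma 3.58.1 in R 4.3.3, with Benjamini-Hochberg adjustment over all of them at 0.05: the Sca1 fractions over 6 day 3 arrays with treatment as a block, and the treatments and days over all 10 arrays with additive terms. Their p-values measure unevenness over treatments or populations. The 27 differences between single arrays were counted past 1.5-fold with no test. The fits were tested on simulated data. The normexp alternative used the median signal, since the files hold no mean signal. Alternatives were quantile normalization, normexp, median centring, other filters, the mean of probes, a slide block and left-out arrays.

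The members and all gene lists were chosen with earlier results of these data known. Members named in the text are the 5 highest (called ones first) and 5 lowest in each fit, the 6 largest and 4 smallest SDs over arrays, the 4 highest and 4 lowest mean levels, probe pairs with r under 0.5, the Mrps18 paralogues and the gene the filter left out; of other lists, up to 2 at each end. Levels of different probes were not compared. Python 3.11.15, pandas 2.3.3 and numpy 2.4.6 were used for counts and figures.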

Additional observations from a re-analysis of the deposited data

How the results depend on the processing

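Single arrays for each condition limit every value. Quantile normalization gave median member differences of 0.47 for Sca1-low minus Sca1-high, 0.50 for EPO minus untreated, 0.35 for EPO minus IL-3/GM-CSF and -0.42 for combined minus EPO; with normexp first they were 0.48, 0.46, 0.33 and -0.42. Of single arrays minus untreated, quantile normalization gave 0.70 for EPO Sca1-low, 0.53 for EPO day 6 and -0.28 for combined Sca1-high cells, and with normexp 0.69, 0.47 and -0.29. The fraction differences were 0.55 in EPO and 0.62 in combined cultures, and with normexp 0.54 and 0.62. Centring on the median gene gave 0.76 for Sca1-low minus Sca1-high, 0.83 for EPO minus untreated, 1.29, 0.93, 0.53 and -0.35 for EPO Sca1-low, EPO day 6, combined Sca1-low and combined Sca1-high minus untreated, and 1.04 for the EPO fractions. With slide as a block the medians were 1.06, 0.66 and 0.32 for EPO, IL-3/GM-CSF and combined minus untreated, 0.37 for EPO minus IL-3/GM-CSF, -0.37 for combined minus IL-3/GM-CSF and -0.41 for day 6 minus day 3. Members called between the fractions were 4 in the limma fit reported, 2 with quantile normalization, with no filter and with slide as a block, 12 with normexp, 28 with the filter on all 10 arrays, and 0 in the fit over all 10 arrays. Leaving out 1 treatment or array at a time gave 0 to 4 called and medians of 0.55 to 0.85 between the fractions. It gave 0.56 to 0.77 for EPO, -0.059 to 0.30 for IL-3/GM-CSF and -0.078 to 0.078 for combined minus untreated. It gave 0.39 to 0.76 for EPO minus IL-3/GM-CSF, -0.82 to -0.59 for combined minus EPO, -0.34 to 0.047 for combined minus IL-3/GM-CSF and -0.10 to 0.16 for day 6 minus day 3. The cause of these shifts was not tested. The other 289 values for the main results moved by less than 0.10, or by at most 1.5 times for counts. Among them the median of combined minus untreated, -0.02, also turned its sign, to 0.02 with quantile normalization, 0.03 with normexp and 0.06 with centring. No paired analysis was possible because the replicate numbers pair nothing, each condition having 1 array with the number 1; the fit between the fractions pairs arrays by culture instead, through its treatment block.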
